A study of Mus musculus with 8 samples.

Results

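The transcripts of the receptor chains for interferons (IFN) and interleukin (IL)-10 were described in splenic natural killer (NK) cells and CD8+ T cells of mice that lack the tyrosine kinase 2 (TYK2) gene. The chains were chosen by name, as the 6 genes *Ifnar1*, *Ifnar2*, *Ifngr1*, *Ifngr2*, *Il10ra* and *Il10rb* out of the 54232 genes of the count table, and each gene identifier matched a single symbol. Each group held 3 libraries of sorted cells taken directly from the spleen (labelled homeostatic) of mice aged 8 to 12 weeks, with the strain labelled C57BL/6 (C57BL/6N in the study's methods) and the genotype Tyk2 knockout (Tyk2-/-), and the spleens of 3 littermates were pooled. The study's methods name lines with the *Tyk2*tm1Biat allele, among them a line that also carries a CMV-cre transgene, and the labels do not say which line gave these libraries. Both groups are Tyk2-/- and no *WT* library was set beside them, so that the values compare cell types and no effect of TYK2 on the chains was tested.

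Each of these receptors is built from a chain that holds most of the contact with the ligand and an accessory chain that completes the signalling complex. IFNAR2 and IFNAR1 form the receptor for type I IFN, IFNGR1 and IFNGR2 that for IFNγ, and IL10RA and IL10RB that for IL-10. The chains have no enzyme activity of their own and carry Janus kinases: TYK2 sits on the accessory chains IFNAR1 and IL10RB, JAK1 on the ligand-binding chains IFNAR2, IFNGR1 and IL10RA, and JAK2 on IFNGR2. In NK cells and CD8+ T cells type I IFN and IFNγ are known for supporting or restraining effector functions, and IL10RB is shared with the receptors for IL-22 and for type III IFN.

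Total counts ranged from 20957384 to 26144478 in CD8+ T cells and from 32848432 to 38573550 in NK cells, and levels are given as CPM, the counts scaled to library size with TMM (trimmed mean of M values) factors. Genes with any count numbered 12893 to 14042 in the CD8+ T cell libraries and 17224 to 17373 in those of NK cells. A count of 3 or fewer, equal to 0.0869 to 0.127 CPM, was treated as not detectable. The library labels fitted their markers: the summed level of 6 NK cell markers was 16600 to 18520 CPM in NK cells and 35.3 to 69.6 CPM in CD8+ T cells, whereas 6 CD8+ T cell markers reached 274.5 to 468.6 CPM and 7915 to 9306 CPM, respectively. Raw counts of *Tyk2* were 105, 919 and 554 in the CD8+ T cell libraries, against 3864, 4245 and 3207 in those of NK cells. Counts per gene do not show which exons the reads came from, so that these values do not check the knockout. Values varied more between CD8+ T cell libraries than between NK cell libraries, with a common biological coefficient of variation of 1.42 over 11633 genes and 0.792 over 12861 genes.

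Of the 6 chains, 4 lie side by side on chromosome 16 of the GRCm38 genome, all on the plus strand and within 192.8 kb. *Ifnar2* (ENSMUSG00000022971) spans chr16:91372783-91405589 and is followed by *Il10rb* (ENSMUSG00000022969, chr16:91406164-91425834), *Ifnar1* (ENSMUSG00000022967, chr16:91485238-91507441) and *Ifngr2* (ENSMUSG00000022965, chr16:91547072-91565623). *Ifngr1* (ENSMUSG00000020009) is at chr10:19591949-19610229 on the plus strand and *Il10ra* (ENSMUSG00000032089) at chr9:45253837-45269149 on the minus strand. All 6 are annotated as protein coding. Another gene model of the cluster, *Gm21970*, shares 9.9% of the exon bases of *Ifnar2* and 30.8% of those of *Il10rb*. It had 0 counts in all 6 libraries, and reads from the shared exons may have been assigned to no gene, since the counting mode is not given in the sources used here.

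The promoters of 3 neighbours of this cluster are shown because the neighbours had different levels, *Ifnar2* being the chain called between the cell types and *Ifngr2* the lowest chain per kb of exon in NK cells. The sequences are from RefSeq on the build GRCm38.p6 and run from 250 bases before the RefSeq start of the gene to 30 bases after it. Capitals mark a match to TTCNNNGAA, the motif of the IFNγ-activated site (GAS) bound by STAT dimers, which was searched on both strands.

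Ifnar2, chr16:91372533-91372812, plus strand: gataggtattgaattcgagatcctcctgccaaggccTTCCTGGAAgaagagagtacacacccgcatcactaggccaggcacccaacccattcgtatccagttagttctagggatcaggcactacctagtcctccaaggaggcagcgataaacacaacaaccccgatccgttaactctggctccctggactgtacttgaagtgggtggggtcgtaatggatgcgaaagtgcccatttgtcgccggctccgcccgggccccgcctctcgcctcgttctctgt
Ifnar1, chr16:91484965-91485244, plus strand: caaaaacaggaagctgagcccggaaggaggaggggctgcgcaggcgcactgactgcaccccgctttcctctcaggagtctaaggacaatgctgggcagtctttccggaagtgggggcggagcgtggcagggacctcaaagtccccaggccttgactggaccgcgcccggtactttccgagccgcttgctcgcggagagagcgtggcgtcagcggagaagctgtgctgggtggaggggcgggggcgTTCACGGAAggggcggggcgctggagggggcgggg
Ifngr2, chr16:91546809-91547088, plus strand: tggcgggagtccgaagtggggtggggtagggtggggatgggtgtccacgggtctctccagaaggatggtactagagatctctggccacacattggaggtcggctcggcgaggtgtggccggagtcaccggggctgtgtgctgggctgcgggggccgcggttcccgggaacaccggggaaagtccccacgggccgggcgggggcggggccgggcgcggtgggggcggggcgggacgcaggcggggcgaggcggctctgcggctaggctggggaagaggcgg

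The GAS motif was found in *Ifnar2*, with its first base at -214 from the start, and in *Ifnar1*, with its first base at -5, and in neither *Ifngr2* nor *Ifngr1*. Of all 32851 promoters in the table, taken over 300 bases, 8.3% held it. The core of the IFN-stimulated response element (ISRE), a pair of GAAA repeats parted by NN and searched on both strands, was in none of these 4 promoters and in 3.44% of all. The promoters were rich in G and C, with 57.0% in *Ifnar2*, 60.3% in *Ifngr1*, 68.3% in *Ifnar1* and 74.3% in *Ifngr2*, against a median of 52.7% over all promoters. *Ifngr2* also had 31 CpG dinucleotides, *Ifnar1* 26, *Ifnar2* 18 and *Ifngr1* 14, where the median was 7. RefSeq promoters were matched for 4 of the 6 members, and *Il10ra* and *Il10rb* were not matched.

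Among the ligand-binding chains, *Ifnar2* and *Ifngr1* were detected in all libraries and were higher in every NK cell library than in any CD8+ T cell library, as were 25.5% of all genes tested. *Ifnar2* encodes the chain that binds type I IFN with high affinity. It had 66.1, 75.9 and 63.4 CPM in the CD8+ T cell libraries, against 214, 250 and 296 CPM in those of NK cells. The libraries of each group lay close together, with the highest at 1.20 times the lowest in CD8+ T cells and at 1.38 times in NK cells, and the groups did not overlap. The mean was 68.5 ± 6.54 CPM (SD, n = 3) in CD8+ T cells and 253.4 ± 41.2 CPM (SD, n = 3) in NK cells, a 3.7-fold difference (log2 fold change 1.89 with a standard error of 0.23, quasi-likelihood test of edgeR, adjusted p = 0.00451 by the Benjamini-Hochberg method over 14062 genes). *Ifnar2* was the only chain of the 6 that passed this test, and it did so in 6 of 6 fits that each left out 1 library (adjusted p = 0.0077 to 0.0365, edgeR). This makes 1 of 6 chains called higher in NK cells and 0 called lower (3 and 0 at an unadjusted p under 0.05, 3 and 1 with DESeq2), where 11.4% of all genes tested were called, 6.24% higher and 5.14% lower in NK cells. For the other counts the shares over all genes were 17.8% higher and 12.9% lower at an unadjusted p under 0.05 in edgeR (30.7% in all), and 16.9% higher and 12.7% lower with DESeq2 (29.6% of the 12612 genes it gave an adjusted p). In these bulk samples a lower share of cells that express a gene and less RNA of it per cell cannot be told apart.

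*Ifngr1*, the chain that binds IFNγ, had the highest level per kb of exon in both cell types. Its level was 609, 601 and 457 CPM in the CD8+ T cell libraries, against 780, 945 and 891 CPM in those of NK cells. The lowest NK cell library was above the highest CD8+ T cell library. The means of 555.5 ± 85.6 CPM (SD, n = 3) and 871.9 ± 83.9 CPM (SD, n = 3) differed by a log2 fold change of 0.65 with a standard error of 0.18, which did not pass the threshold of 0.05 (adjusted p = 0.0619, edgeR). The call depended on the method: with RLE (relative log expression) scaling the adjusted p was 0.0481 in edgeR, and DESeq2's Wald test gave 0.00907, both at a log2 fold change of 0.71. With plain CPM from the library totals the means were closer, at 626.4 CPM in CD8+ T cells and 772 CPM in NK cells.

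*Il10ra*, the chain that binds IL-10, was detected in all NK cell libraries and in 1 CD8+ T cell library. Its raw counts were 290, 3 and 1 in the CD8+ T cell libraries, or 12.3, 0.127 and 0.0335 CPM. In the NK cell libraries they were 6383, 6294 and 4753, or 215, 182 and 148 CPM. The NK cell libraries were close to each other and above every CD8+ T cell library, while CD8+ T cell libraries 2 and 3 were not above the smallest detectable count. The means were 181.7 ± 33.5 CPM (SD, n = 3) and 4.14 ± 7.04 CPM (SD, n = 3), and the log2 fold change of 5.46 with a standard error of 1.93 did not pass the test (adjusted p = 0.115, edgeR). DESeq2 called it at a log2 fold change of 5.51 (adjusted p = 0.0142).

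CD8+ T cell library 1 decided this value. Without it, the fitted log2 fold change was 11.14 (adjusted p = 0.00158, edgeR). This fitted value depends on the prior count added to the remaining 3 and 1 counts, and it is no bound on the fold. The same library had the highest level of B cell markers, a list of 5 genes with a summed level of 230.4 CPM there, 164.4 and 32.5 CPM in CD8+ T cell libraries 2 and 3, and 0.249 to 52.6 CPM in NK cells. For *Ms4a1*, CD8+ T cell libraries 1 to 3 had 405, 6 and 0 raw counts, for *Cd79a* 347, 17 and 0, and for *Cd79b* 4691, 3853 and 972. Of the list, 3 of 5 genes were above 3 counts in libraries 1 and 2 and 1 of 5 in library 3, and *Pax5* and *Fcrla* were at 0 in all 3. Library 1 was also the highest of its group for the CD4+ T cell genes (4.02 CPM, against 0.255 and 0.134). All of this came from *Cd40lg* (95 raw counts), with *Cd4* and *Foxp3* at 0 there. It was the highest for the erythroid and platelet genes as well (1.48 CPM, against 0.127 and 0.0670). There *Hba-a1* had 32 raw counts and *Hbb-bs* 3, and 5 of the 7 genes were at 0. For the myeloid and the dendritic cell genes library 1 was the lowest of its group (0.0847 and 0 CPM). The same was true of the 6 NK cell markers (35.3 CPM, against 41.2 and 69.6), where *Eomes* made up 34.9 CPM in library 1. The part of other cells in the 290 counts of *Il10ra* was not tested. Of the 8784 genes with a mean of at least 5 CPM in NK cells, 11.9% had 3 counts or fewer in at least 2 of the 3 CD8+ T cell libraries, as *Il10ra* did.

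**Figure D1:**
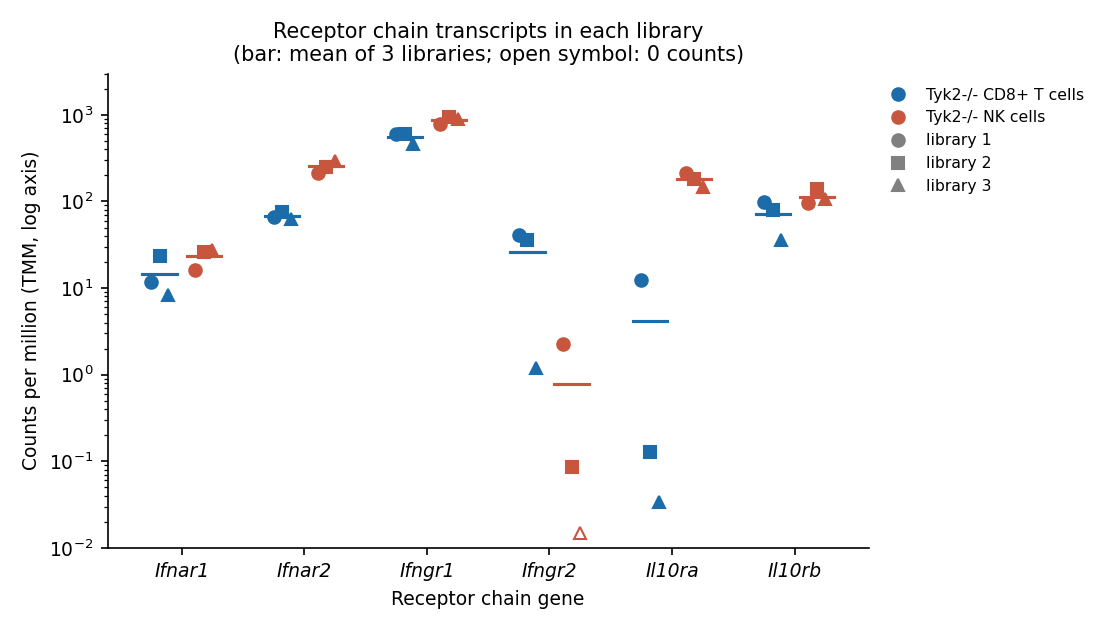
Level of each receptor chain in CPM (TMM scaling, log axis) in the 3 Tyk2-/- CD8+ T cell libraries (blue) and the 3 Tyk2-/- NK cell libraries (red). Symbols mark the libraries, bars the means, and an open symbol 0 counts. The groups are apart for *Ifnar2*, *Ifngr1* and *Il10ra*, whereas the CD8+ T cell libraries are spread widely for *Ifngr2* and *Il10ra*.

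Among the 3 accessory chains, 0 passed the edgeR test and 0 had an unadjusted p under 0.05, beside 11.4% and 30.7% of all genes. With 3 genes, such counts do not set the accessory chains apart from other genes. DESeq2 called 1 of them (12.7% of all genes were called lower by it). The groups overlapped for all 3, where 41.6% of all genes tested did not overlap. *Ifngr2*, the accessory chain of the IFNγ receptor, whose amount is known to be regulated in T cells, was low in NK cells. Its raw counts were 67, 3 and 0 in the NK cell libraries, or 2.26, 0.0869 and 0 CPM. In the CD8+ T cell libraries they were 974, 837 and 36, or 41.2, 35.5 and 1.21 CPM. CD8+ T cell libraries 1 and 2 were above all NK cell libraries, but library 3 was below NK cell library 1. The means were 26.0 ± 21.6 CPM (SD, n = 3) in CD8+ T cells and 0.781 ± 1.28 CPM (SD, n = 3) in NK cells. On the log2 scale NK cells differed from CD8+ T cells by -5.05 with a standard error of 2.29 (adjusted p = 0.190, edgeR), and DESeq2 called it at -4.97 (adjusted p = 0.0235). Without NK cell library 1 the fitted value was -9.07 (adjusted p = 0.15, edgeR), which rests on the 3 and 0 counts that remain.

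Within CD8+ T cells the highest library for *Ifngr2* was 34.2 times the lowest. Such a spread of 10 times or more was found for 27.1% of the 8541 genes with a mean of at least 5 CPM in CD8+ T cells and for 2.55% of 8784 genes in NK cells. Of the 8541 genes, 3.25% had 3 counts or fewer in at least 2 of the 3 NK cell libraries, as *Ifngr2* did. The NK cell libraries were the deeper ones, with every total above those of CD8+ T cells. The low counts of *Il10ra* in CD8+ T cells, by contrast, fell in the shallower libraries.

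*Ifnar1*, the accessory chain of the type I IFN receptor and a docking chain of TYK2, had low levels in both cell types. It had 11.8, 23.3 and 8.30 CPM in the CD8+ T cell libraries, against 16, 26.3 and 27.3 CPM in those of NK cells. CD8+ T cell library 2 was above NK cell library 1, so that the groups overlapped. The means were 14.4 ± 7.85 CPM (SD, n = 3) and 23.2 ± 6.24 CPM (SD, n = 3), with a log2 fold change of 0.68, a standard error of 0.67 and an adjusted p of 0.537 (edgeR).

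*Il10rb*, the other docking chain of TYK2, was well detected in all libraries. Its level was 98.1, 79.9 and 35.9 CPM in the CD8+ T cell libraries, against 95.2, 139 and 107 CPM in those of NK cells. CD8+ T cell library 3 was the lowest, and CD8+ T cell library 1 lay above NK cell library 1. The means of 71.3 ± 32.0 CPM (SD, n = 3) and 113.6 ± 22.6 CPM (SD, n = 3) differed by a log2 fold change of 0.67 with a standard error of 0.42 (adjusted p = 0.316, edgeR).

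The groups did not overlap for 3 of the 6 chains, all higher in NK cells, where 41.6% of all genes tested did not overlap and 25.5% were higher in every NK cell library. The median log2 fold change of the 6 chains was 0.68, against 0.1 over all genes tested. Use of plain library totals in place of TMM scaling shifts log2 fold changes by -0.35, and the mean of each chain stayed on the same side of the other cell type's mean with plain totals and with RLE scaling.

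When levels were divided by exon length, *Ifngr1* came first in both cell types, and the rest of the order differed. In CD8+ T cells the mean was 263.0 ± 40.5 CPM per kb of exon for *Ifngr1*, 38.5 ± 17.3 for *Il10rb*, 21.6 ± 2.06 for *Ifnar2*, 7.01 ± 5.84 for *Ifngr2*, 3.70 ± 2.01 for *Ifnar1* and 1.19 ± 2.01 for *Il10ra* (SD, n = 3). The neighbours *Il10rb* and *Ifnar2* overlapped between libraries, as did *Ifngr2* with *Ifnar1* and *Ifnar1* with *Il10ra*, so that these neighbours were not separated. In NK cells the mean was 412.8 ± 39.7 CPM per kb for *Ifngr1*, 79.9 ± 13.0 for *Ifnar2*, 61.4 ± 12.2 for *Il10rb*, 51.9 ± 9.59 for *Il10ra*, 5.93 ± 1.60 for *Ifnar1* and 0.211 ± 0.345 for *Ifngr2* (SD, n = 3). Here *Ifnar2* overlapped with *Il10rb*, and *Il10rb* with *Il10ra*, whereas *Ifnar1* lay below them and *Ifngr2* below *Ifnar1* in every library. When the exons shared with *Gm21970* were left out of the length, *Il10rb* reached 88.7 CPM per kb in NK cells, beside 88.6 CPM per kb for *Ifnar2*.

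**Figure D2:**
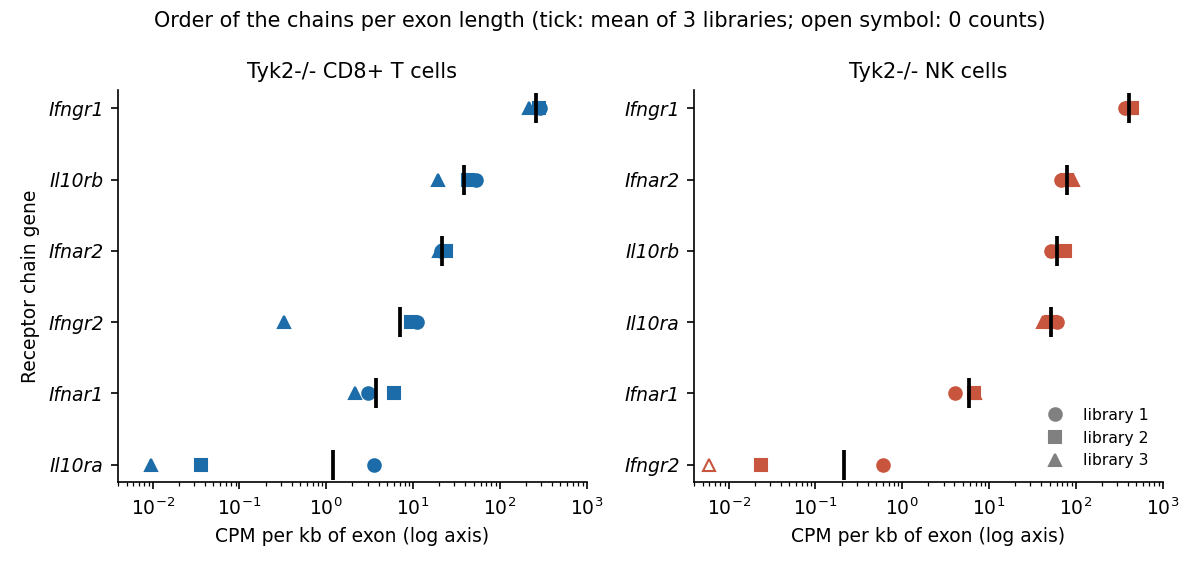
Level of each chain in CPM per kb of exon (log axis) in CD8+ T cells (left) and NK cells (right), ordered from the highest to the lowest mean. Symbols are the 3 libraries, black ticks the means, and open symbols 0 counts. *Ifngr1* leads in both cell types, *Il10ra* comes last in CD8+ T cells and *Ifngr2* in NK cells.

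Along the chromosome 16 cluster, *Ifnar2* and *Il10rb* at its start had higher levels per kb in every NK cell library than *Ifnar1* and *Ifngr2* at its end. In CD8+ T cells the same held for *Ifnar2* and *Il10rb*, while *Ifngr2* and *Ifnar1* overlapped. The noncoding *A930006K02Rik*, which lies between *Il10rb* and *Ifnar1*, gave 166, 479 and 580 raw counts in CD8+ T cells, against 596, 551 and 318 in NK cells. *Gm49625*, a lincRNA on the minus strand, had 0, 10 and 0 counts in CD8+ T cells, against 0, 129 and 155 counts in NK cells.

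**Figure D3:**
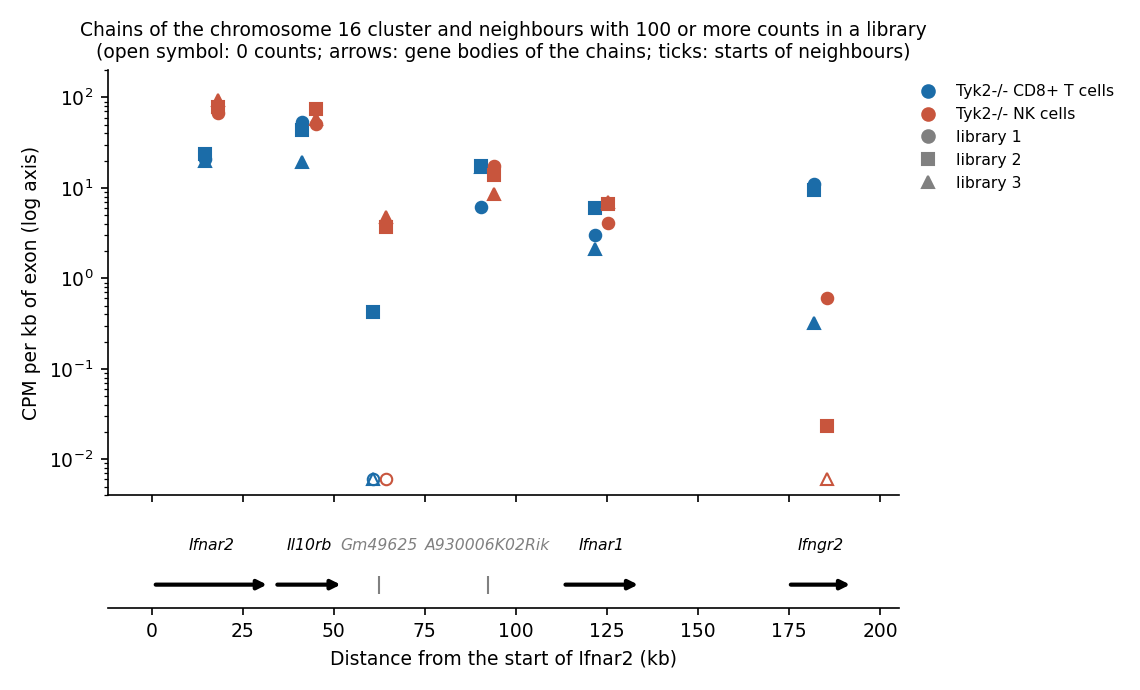
Level in CPM per kb of exon (log axis) of the 4 chains of the chromosome 16 cluster and of 2 neighbouring genes, against the distance from the start of *Ifnar2* in kb. Symbols are libraries (blue, CD8+ T cells; red, NK cells; open, 0 counts), and arrows below mark the chains. In NK cells *Ifnar2* and *Il10rb* are high, and *Ifngr2* at the far end is at or near 0.

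The ratio of partner chains within a library needs no scaling between libraries, and was taken as the log2 ratio of counts with 0.5 added to each count. For the type I IFN receptor, the *Ifnar1* to *Ifnar2* log2 ratio came to -2.49, -1.70 and -2.93 in the CD8+ T cell libraries, against -3.74, -3.25 and -3.44 in those of NK cells. The accessory chain was the rarer transcript in all 6 libraries, more so in each NK cell library. The means of -2.37 ± 0.62 (SD, n = 3) and -3.48 ± 0.25 (SD, n = 3) differed by -1.1 (two-sided exact permutation test, p = 0.1, adjusted p = 0.15 over 3 ratios), and 0.1 is the smallest p that 3 libraries against 3 allow. With a library left out this difference ranged from -1.38 without CD8+ T cell library 3 to -0.77 without CD8+ T cell library 2.

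For the IL-10 receptor, the *Il10ra* to *Il10rb* log2 ratio came to -3.00, -9.07 and -9.48 in CD8+ T cells, against 1.17, 0.39 and 0.47 in NK cells. The ligand-binding chain had more counts than its partner in each NK cell library and fewer in each CD8+ T cell library. The difference of the means was 7.86 (exact permutation test, p = 0.1, adjusted p = 0.15). It was 9.96 without CD8+ T cell library 1, 6.92 and 6.71 without library 2 or 3 of that group, and 7.62 to 8.01 without an NK cell library. Per kb of exon, the mean ratio in NK cells was -0.24, so that there the sign depends on the division by length.

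For the IFNγ receptor, the *Ifngr1* to *Ifngr2* log2 ratio came to 3.88, 4.08 and 8.55 in CD8+ T cells, against 8.42, 13.19 and 15.81 in NK cells. The highest value comes from 28644 counts of *Ifngr1* against 0 of *Ifngr2*, so that the added 0.5 sets its size. CD8+ T cell library 3 overlapped with NK cell library 1, and the difference of 6.97 had p = 0.2 (exact permutation test, adjusted p = 0.2). This difference was 8.99 without NK cell library 1, 8.49 without CD8+ T cell library 3, 5.3 without NK cell library 3 and 6.16 to 6.61 without any of the other libraries.

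**Figure D4:**
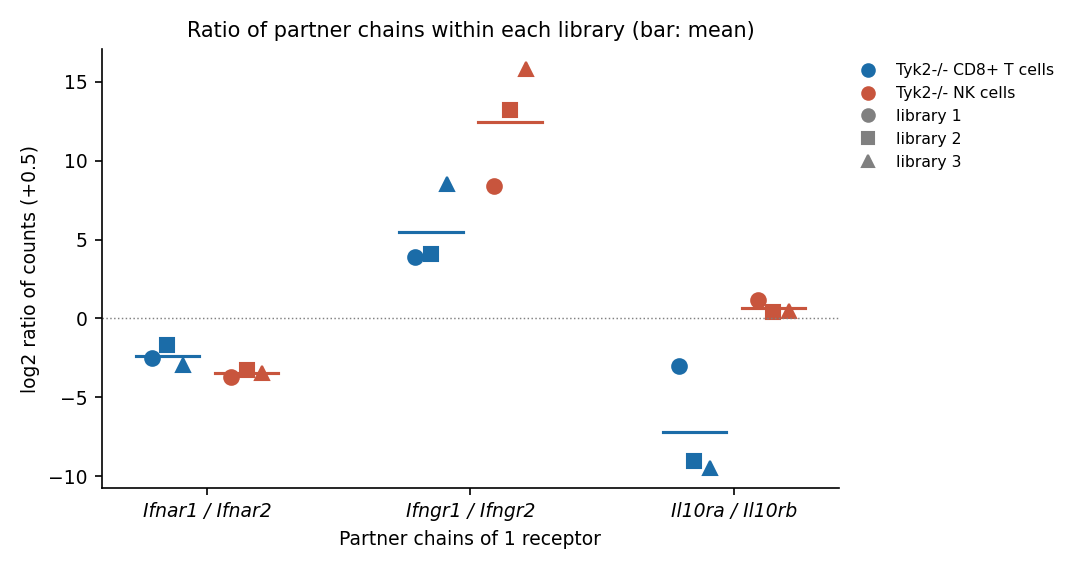
Log2 ratio of the counts of partner chains (0.5 added to each count) in each CD8+ T cell library (blue) and NK cell library (red), with bars at the means and a dotted line at equal counts. *Ifnar1* is below *Ifnar2* and *Ifngr1* above *Ifngr2* in all 6 libraries, whereas *Il10ra* is above *Il10rb* in the 3 NK cell libraries and below it in the 3 CD8+ T cell libraries.

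Of 6 other genes of the same receptor class, *Ifnlr1*, *Il22ra1*, *Il22ra2* and *F3* had 0 counts in all 6 libraries. *Ifnlr1* and *Il22ra1* encode partners of IL10RB in the receptors for type III IFN and IL-22, and *F3* encodes tissue factor, a receptor of blood clotting. *Il20ra* had 0 counts in each CD8+ T cell library and 36, 24 and 46 counts in the NK cell libraries, and was not called (adjusted p = 0.0662, edgeR). Its NK cell mean was 9.41 times the mean floor of 3 counts per CD8+ T cell library. That floor covers counting error only, so this is no bound on the fold. *Il20rb* had 1, 851 and 0 counts in CD8+ T cells, against 63, 49 and 128 in NK cells (adjusted p = 0.591, edgeR), so that CD8+ T cell library 2 alone set its mean there. Of the list 0 of 2 genes tested were called with edgeR and 1 had an unadjusted p under 0.05, beside 11.4% and 30.7% of all genes. DESeq2 gave an adjusted p to 1 of them and did not call it, beside 29.6% of all genes given one. The median log2 fold change was 0.49 with *Il20ra* taken at 9.41-fold and 2.88 as fitted.

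Of 15 genes for ligands of these receptors, 13 had 0 counts in all 6 libraries, among them *Ifnb1* and *Il10*. Only uniquely aligned reads were counted, so that 0 counts do not show absence for genes with close relatives in the genome. *Ifng*, which encodes the ligand of IFNGR1 and IFNGR2, had 0, 384 and 0 counts in the CD8+ T cell libraries, against 1597, 2140 and 1541 in those of NK cells. All NK cell libraries were above all CD8+ T cell libraries, but the difference did not pass the test (log2 fold change 3.33, adjusted p = 0.369, edgeR). Without CD8+ T cell library 2 the fitted value was 13.69 (adjusted p = 0.00371, edgeR). That fit rests on the 0 counts that remain in CD8+ T cells, and its size depends on the prior count.

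Among 6 kinases and transcription factors that act at these receptors, 1 was called higher and 1 lower in NK cells with edgeR (2 and 1 at an unadjusted p under 0.05, and 2 and 1 with DESeq2), with a median log2 fold change of -0.45. That is 2 of 6 with edgeR and 3 of 6 by each of the other counts, beside 11.4%, 30.7% and 29.6% of all genes. *Jak1*, the kinase on the ligand-binding chains, was higher in NK cells, with 19425, 14066 and 15355 counts in CD8+ T cells, against 53471, 55502 and 52801 in NK cells (log2 fold change 1.39 with a standard error of 0.20, adjusted p = 0.00995, edgeR). *Jak2*, the kinase on IFNGR2, overlapped between the groups, with 337, 693 and 506 counts and 331, 659 and 513 counts (adjusted p = 0.726, edgeR). *Irf9*, the DNA-binding subunit of the factor that type I IFN activates, went the other way, with 3694, 1570 and 3223 counts in CD8+ T cells, against 1163, 627 and 827 in NK cells (log2 fold change -1.99, adjusted p = 0.0431, edgeR). *Tyk2*, with the counts given above, was higher in every NK cell library and did not pass the edgeR test (log2 fold change 2.51, standard error 0.75, adjusted p = 0.0755), while DESeq2 called it at 2.57 (adjusted p = 0.0024). The call of *Jak1* was lost without NK cell library 1 or 3 (adjusted p = 0.0561 and 0.0530). *Irf9* kept its call in 1 of 6 such fits, that without CD8+ T cell library 2.

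Of 10 genes that regulate the receptors, 1 was called higher in NK cells and 0 lower with edgeR (2 and 1 at an unadjusted p under 0.05, and 2 and 1 with DESeq2), with a median log2 fold change of 0.54. The 1 of 10 genes called with edgeR is near the 11.4% of all genes. The 3 of 10 genes in each of the other counts are near the 30.7% and 29.6% of all genes. *Ptpn1*, a tyrosine phosphatase that acts on JAK2 and TYK2, had 4907, 4266 and 5391 counts in CD8+ T cells, against 13215, 16123 and 11168 in NK cells (log2 fold change 1.15 with a standard error of 0.19, adjusted p = 0.0143, edgeR). It lost its call without NK cell library 1 or 2 (adjusted p = 0.0861 and 0.0833). *Usp18*, which binds IFNAR2 and dampens its signal, had 157, 129 and 1 counts in CD8+ T cells, against 202, 218 and 113 in NK cells (adjusted p = 0.885, edgeR). *Prkd2*, a kinase implicated in the turnover of IFNAR1, had 2390, 392 and 734 counts in CD8+ T cells, against 331, 308 and 151 in NK cells (adjusted p = 0.104, edgeR).

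Of 10 target genes of the receptors, 7 were tested. With edgeR 0 were called higher and 1 lower in NK cells, beside 11.4% of all genes in both directions. At an unadjusted p under 0.05 these were 3 and 1, beside 30.7% of all genes. DESeq2 called 1 and 1 of the 5 it gave an adjusted p, beside 29.6% of all genes. The median log2 fold change was 0.81. *Gbp2*, a guanylate-binding protein induced by IFNγ, had 3405, 1851 and 4342 counts in CD8+ T cells, against 608, 1073 and 506 in NK cells (log2 fold change -2.45 with a standard error of 0.42, adjusted p = 0.0165, edgeR). Its call was lost without NK cell library 1 or 3 (adjusted p = 0.0931 and 0.0829). *Irf1*, a transcription factor induced by IFNγ, had 3439, 1920 and 3052 counts in CD8+ T cells, against 4576, 7820 and 6274 in NK cells (adjusted p = 0.126, edgeR). *Nfil3*, a target of IL-10 in myeloid cells and a factor that NK cells need to develop, had 635, 50 and 0 counts in CD8+ T cells, against 5699, 8748 and 8316 in NK cells (adjusted p = 0.147, edgeR).

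**Figure D5:**
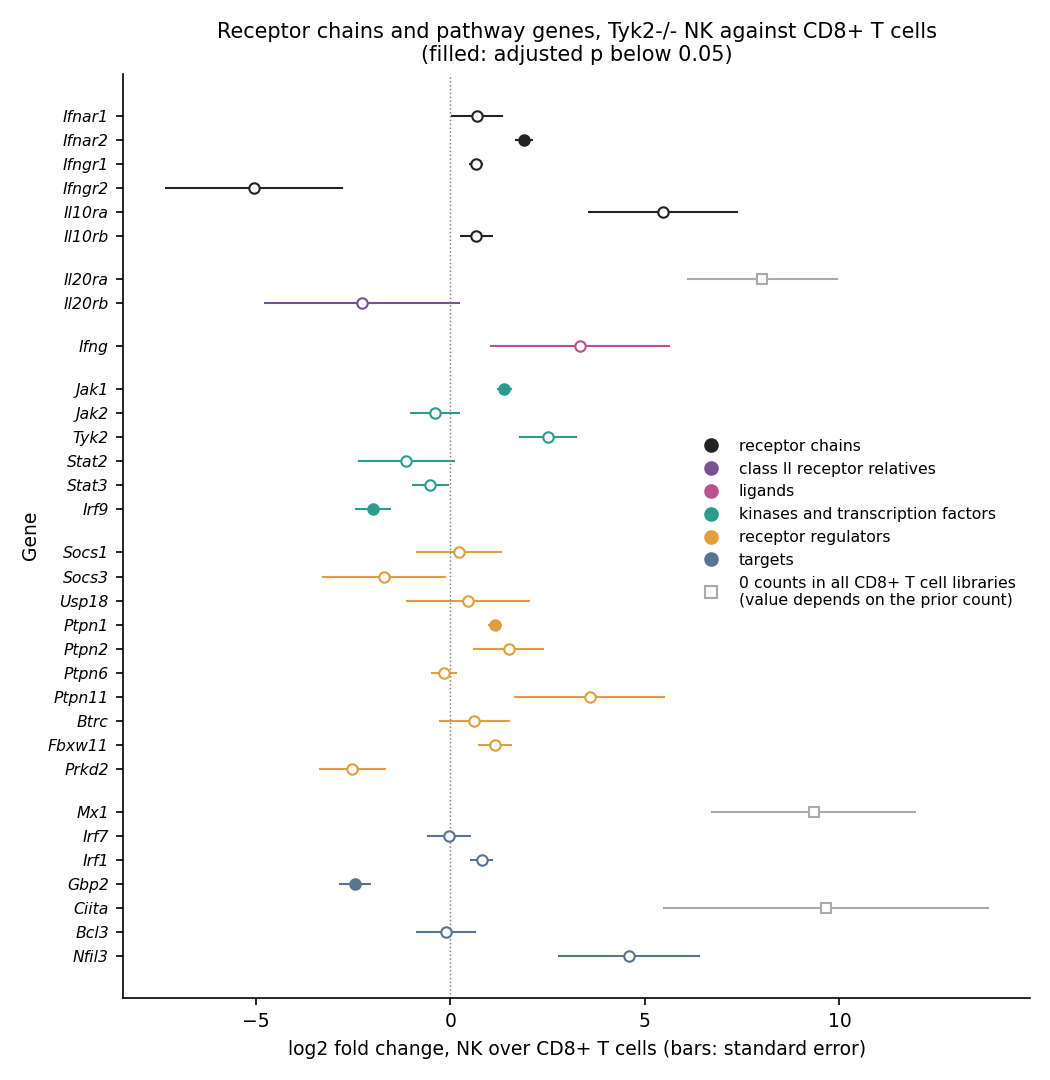
Log2 fold change between the Tyk2-/- cell types (positive, higher in NK cells) with its standard error for the 6 chains and for the tested genes of the 5 lists, from edgeR. Filled points have an adjusted p below 0.05 (*Ifnar2*, *Jak1*, *Irf9*, *Ptpn1* and *Gbp2*). Grey squares are *Il20ra*, *Mx1* and *Ciita*, which were at 0 counts in each CD8+ T cell library, so that their fitted value depends on the prior count.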

How the data were processed

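Single-end RNA-seq reads of amplified cDNA were trimmed by the authors with Trimmomatic 0.32, aligned to mm10 with STAR 2.7.1 and counted in R 3.2.3 with summarizeOverlaps on the Ensembl GENCODE Basic set of GRCm38, and the authors normalised and tested them with DESeq2. The values used here are raw counts, which the authors deposited as the number of uniquely aligned exon reads of each gene. Whether strand was used is not given in the sources used here. Of the value columns, 6 were used and 98 were not. Among the latter are 3 columns of *WT* homeostatic CD8+ T cells, for which the labels list 2 samples, so that the planned comparison with *WT* was not run. The columns name the group but no sample, and libraries were numbered 1 to 3 in each group as names only. The labels do not say that the pools of 3 spleens came from separate litters, so p-values measure the spread between these libraries, which may in part be technical. The cell types carry different library numbers, and a difference in handling between them cannot be told apart from the cell type.

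Gene symbols and positions were taken from a GENCODE annotation of GRCm38 (54079 of 54232 identifiers matched). The 14062 genes whose mean normalised count reached 10 were tested in R 4.3.3 with edgeR 4.0.16 (TMM, robust quasi-likelihood fit, Benjamini-Hochberg adjustment over all genes, call at 0.05), with DESeq2 1.42.0, RLE scaling, no filter and each library left out as alternatives. Standard errors are the log2 fold change divided by the root of the F statistic. Levels per kb use the union of exons. The amplification used no molecular identifiers here, so floors cover counting error only. Ratios were tested in Python 3.11.15 with scipy 1.17.1. Counts were also simulated for 14062 genes of this comparison, with dispersions estimated from the data. There, 9 of 100 genes changed 4-fold and 38 of 100 changed 16-fold were called, with 4 of 13862 unchanged genes. Whether these shares hold for the unequal spread of the cell types given above was not tested.

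The members and the lists were chosen with earlier results of these data known, so that no list was tested. Some genes of the planned lists are not reported here and were left out of the counts and sums of these lists. The text names all 6 chains, every called gene of the other lists and at most 4 further genes of each, beside those whose sign turned with an alternative, and for each chain the 2 genes most alike across libraries. The remaining marker lists had summed levels in CPM of 0.134 to 4.02 in CD8+ T cells, against 0.560 to 1.25 in NK cells for 3 CD4+ T cell genes, 0.0847 to 4.92 and 8.65 to 38.0 for 10 myeloid genes, 0 to 15.2 and 8.81 to 26.0 for 5 dendritic cell genes, and 0.0670 to 1.48 and 0.653 to 6.67 for 7 erythroid and platelet genes.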

Additional observations from a re-analysis of the deposited data

How the results depend on the processing

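The direction of all 6 chains and the call of *Ifnar2* were kept under RLE scaling, both DESeq2 tests, no filter on low counts and each library left out. The number of chains called was 1 with edgeR, 2 with RLE scaling, 4 with DESeq2 (3 higher and 1 lower in NK cells) and 4 with DESeq2 when its Cook's distance filter was off, and 1 to 2 with a library left out. *Ifngr1* (0.65) was called at 0.71 with RLE scaling, with DESeq2 and without the Cook's filter. *Ifngr2* was called at -4.97 and *Il10ra* at 5.51 with DESeq2, with and without that filter, and *Il10ra* ranged from 4.9 to 11.14 with a library left out. Called regulators went from 1 to 3 with DESeq2 and 3 without the Cook's filter (0 to 2 with a library left out), called targets from 1 to 2 and 4 (0 to 2), called kinases and transcription factors from 2 to between 0 and 3, and called ligands from 0 to between 0 and 1. The targets added without the Cook's filter were *Mx1* and *Ciita*. In the NK cell libraries they had 13, 23 and 234 counts and 0, 1 and 333 counts, so that library 3 held most of them. In the whole table edgeR called 1600 genes, DESeq2 3729, DESeq2 without the Cook's filter 4007, edgeR with no filter on low counts 1336, and edgeR with a library left out 476 to 1946. The 3 lowest of these counts (476, 482 and 485) were those without an NK cell library. Signs of genes that were not called turned with a library left out for *Il20rb* (-2.86 to 6.72), *Jak2* (-0.59 to 0.01), *Stat2* (-1.97 to 0.34), *Stat3* (-0.78 to 0.1), *Socs1* (-0.07 to 0.57), *Usp18* (-0.12 to 0.99), *Ptpn6* (-0.35 to 0.32), *Irf7* (-0.36 to 0.23) and *Bcl3* (-0.57 to 0.5), and *Irf7* (-0.03) was at 0.03 with RLE scaling and both DESeq2 tests. The mean of *Ifnar2* in CD8+ T cells was 77.2 CPM and that of *Ifngr1* in NK cells 772 CPM with plain library totals. With exons shared with another gene left out of the length, a choice made after seeing the data, *Ifnar2* in CD8+ T cells was at 23.9 CPM per kb and *Il10rb* in NK cells at 88.7 CPM per kb. The cause of these changes was not tested.

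With a pseudocount of 1 the differences between partner ratios kept their direction, and with the longest transcript as length no level moved by more than 1 SD. No paired analysis was possible because NK cells and CD8+ T cells share no replicate number in the labels, and the table's columns give none. The fits with *WT* CD8+ T cells, alone or as a further group, were not run. With 3 libraries a group, a call that was missed does not show equal levels. The part of the spread of CD8+ T cells in missed calls was not tested.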

Other observations

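Genes whose level followed that of a chain most closely over the 6 libraries were looked up among 9082 genes with a mean of at least 5 CPM, by Pearson's r of log2(CPM + 0.5). The 6 libraries fall into 2 groups and share their depth and cell type, so that r is a description and says nothing of shared function or control. *Ifnar2* was followed by *Gm19585* (1528, 1894 and 1956 counts in CD8+ T cells, against 9673, 12700 and 14803 in NK cells) and *Ssu72*, both at r = 0.999, and 535 genes reached an r of 0.95. *Ifngr1* was followed by *Bcorl1* and *Arhgap18*, both at 0.997, and *Il10ra* by *Glul* at 0.998 and *Vamp2* at 0.997. *Vamp2* had 114, 6 and 9 counts in CD8+ T cells, against 544, 662 and 464 in NK cells. Its high value in CD8+ T cell library 1 follows from its choice by r with *Il10ra* and is no separate observation.

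Fewer genes followed the chains whose groups overlapped. *Ifngr2* had 22 genes with an r of at least 0.95, led by *Rarg*, a retinoic acid receptor, at 0.998 (393, 361 and 57 counts in CD8+ T cells, against 67, 15 and 15 in NK cells) and *Mfap1a* at 0.981. *Ifnar1* had 24, led by *Med4* at 0.99 and *Slbp* at 0.986, and *Il10rb* had 79, led by *Chfr* at 0.996 and *Nasp* at 0.993. Between partner chains r was 0.71 for *Ifnar1* and *Ifnar2*, -0.53 for *Ifngr1* and *Ifngr2*, and 0.78 for *Il10ra* and *Il10rb*.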
